A study of Mus musculus with 15 samples.

Results

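The genes described here encode the integrins and the laminins, the cell surface receptors and the basement membrane proteins through which cells hold on to the matrix around them. Members were taken by gene symbol alone, as the mouse genes named Itga or Itgb with a number, the leukocyte and alpha v integrin genes Itgal, Itgad, Itgax, Itgav and Itgae, and the Lama, Lamb and Lamc genes. Itga2b and Itgam were left out, and the rule for genes uses no measured value. Of 35 such genes taken from the reference gene table, 33 had at least 1 probe whose accession matched, 23 of them integrin genes and 10 laminin genes. These 33 genes were represented by 43 of the 55681 probes on the array, and each gene is given by its brightest probe. Itga10 and Itgae had no matched probe.

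Expression was measured in the femur midshaft of male C57BL/6J mice, labelled as 9 weeks old, with 1 two-colour array per mouse. G-Sham mice (n = 4) were labelled unoperated controls (sham surgery in the methods) kept on the ground and FLT-Sham mice (n = 4) were unoperated controls kept on the International Space Station. G-Surgery (n = 4) and FLT-Surgery (n = 3) mice had a segmental bone defect, a piece cut from the femoral shaft and replaced by a polymer and mineral graft held by a pin and wrapped in a saline-soaked collagen sponge, on the ground and in flight. The whole callus region, or the same stretch of a sham femur, was milled, so that bone, marrow and any adhering soft tissue entered the RNA together, and fewer cells of a type cannot be told apart from less RNA per cell. Sample RNA was labelled with Cy5 and a commercial pool of RNA from mouse cell lines with Cy3 on all 15 arrays, without dye swap, and a value here is the deposited ratio of sample to this reference on the log2 scale. A signal was taken as measured where the scanner software called the Cy5 spot well above background. Between 12493 and 21461 probes (22.4% to 38.5%) met this on an array, and FLT-Sham replicate 8 had 14813 where the rest of its group had 19424 to 21461. Per the methods, the 9 weeks are the age near surgery, mice were killed roughly a month after launch, and ground mice lived in the same hardware a few days out of step with flight. The healthiest mice of each group were chosen, carcasses were frozen and partly thawed before dissection, and RNA quality was low. The number of arrays limits the precision.

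Each integrin is a pair of 1 alpha and 1 beta chain, and the pairing sets what it binds. Itgb1 pairs with many alpha chains to bind collagens, laminins and fibronectin, Itgb2 pairs with the leukocyte alpha chains, and Itgb4 pairs with Itga6 in the anchoring junctions of epithelia. Laminins are cross-shaped trimers of 1 alpha, 1 beta and 1 gamma chain that assemble with type IV collagen and nidogen into basement membranes. The laminin with the Lama2 chain is the main one of skeletal muscle fibres, those with Lama4 or Lama5 line blood vessels, and Lama3 and Lamb3 belong to an epithelial laminin. In bone, integrins tie osteoblasts, osteocytes and osteoclasts to the mineralized matrix, while laminins belong mainly to the vessels, fat, nerves and muscle in and around it.

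The number of members detected varied from array to array. Itga6, Itga7, Itgb2, Itgb5, Itgb7, Lama5, Lamb1 and Lamc1 were the 8 members above background on all 15 arrays. Another 20 members were above background on some arrays, and Itga2, Itgad, Itgb8, Lama1 and Lamc3 were so on 0 arrays. Per array, 12 to 17 of the 33 members were above background in G-Sham, 14 to 24 in FLT-Sham and 16 to 22 in G-Surgery. All 3 FLT-Surgery arrays had 13. The lowest FLT-Sham count, 14, was again replicate 8. Lama4 was above background in FLT-Sham alone (3 of 4 arrays), and Lama2 in 3 of 4 arrays of both sham groups and on none of the 7 Surgery arrays. Itgax was above background on 3 of 4 G-Surgery arrays, on 1 of 3 FLT-Surgery arrays and on none of the 8 sham arrays. On an array where the sample signal was not above background the ratio sets only an upper limit on the sample, and a few such probes carry a ratio of 0.

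**Figure D1:**
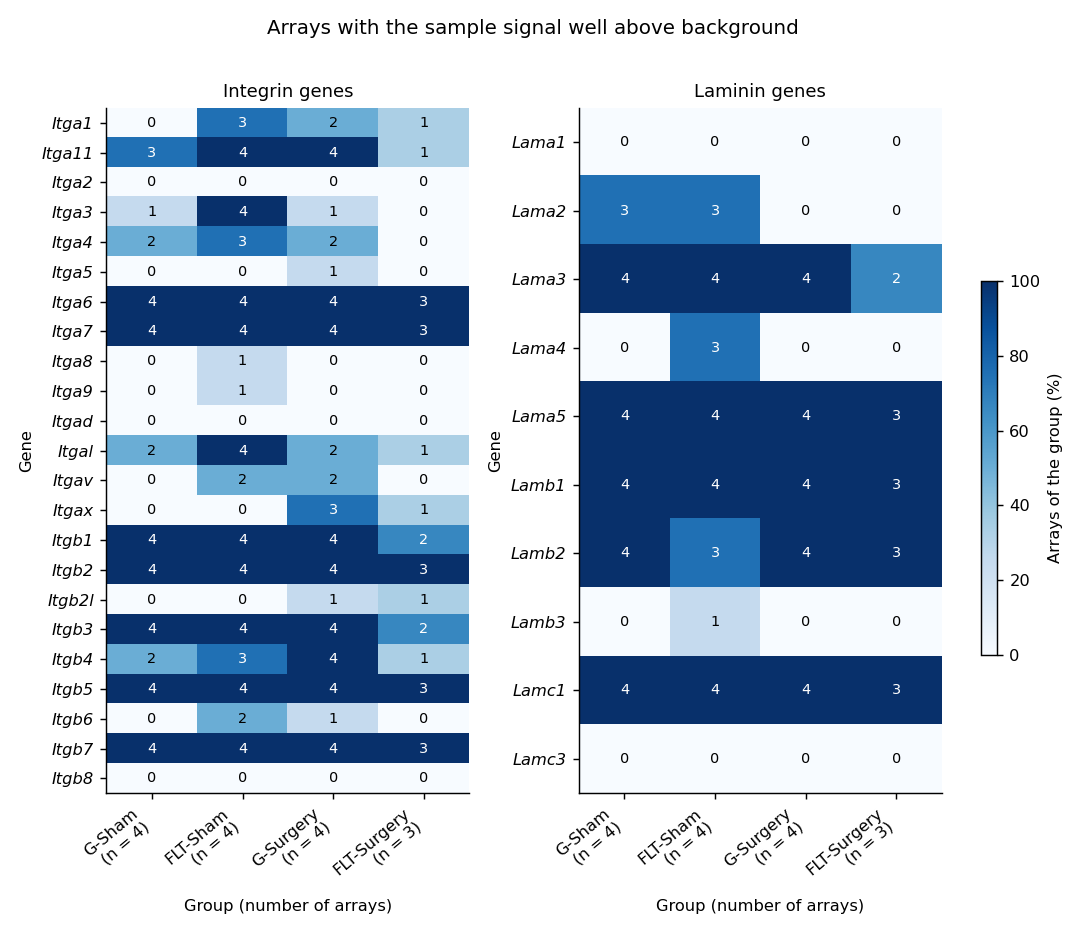
Number of arrays per group on which the sample signal of each integrin gene (left) and laminin gene (right) was well above background; the colour gives the share of the arrays of the group in percent. Lama2 has 3 arrays in each sham group and 0 in both Surgery groups, and Lama4 has 3 arrays in FLT-Sham and 0 elsewhere.

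Promoter windows from the RefSeq table of assembly GRCm38.p6 were matched by symbol for 21 of the 33 members. They are shown for Itgax, Itga4, Itga11 and Lama2, the members described below at length that have a window, each 250 bases before to 50 bases after a RefSeq start, 5′ to 3′ on the strand of the gene. Capitals mark matches, on either strand, to 5 short motifs. The GC box, bound by Sp family factors, was searched as GGGCGG. The motif of PU.1, a factor of blood cells, was searched as GAGGAAG. The RUNX motif of blood and bone factors was searched as TGTGGT. The TATA box, where many promoters place their start, was searched as TATAAA. The AP-1 motif of Fos and Jun factors was searched as TGANTCA, where N is any base. No 2 matches overlap in these windows.
Itgax, chr7:128129300-128129599, plus strand: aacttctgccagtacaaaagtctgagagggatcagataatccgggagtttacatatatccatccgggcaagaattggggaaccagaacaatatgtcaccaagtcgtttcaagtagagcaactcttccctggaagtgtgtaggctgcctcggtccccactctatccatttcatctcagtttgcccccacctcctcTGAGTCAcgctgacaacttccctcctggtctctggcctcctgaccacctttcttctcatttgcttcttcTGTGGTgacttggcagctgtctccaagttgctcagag
Itga4, chr2:79255176-79255475, plus strand: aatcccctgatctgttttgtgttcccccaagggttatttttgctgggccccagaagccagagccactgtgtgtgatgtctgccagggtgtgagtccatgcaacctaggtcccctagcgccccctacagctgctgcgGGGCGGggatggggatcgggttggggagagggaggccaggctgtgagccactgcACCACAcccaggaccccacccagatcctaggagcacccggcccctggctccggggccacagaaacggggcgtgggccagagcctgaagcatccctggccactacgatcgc
Itga11, chr9:62677605-62677904, plus strand: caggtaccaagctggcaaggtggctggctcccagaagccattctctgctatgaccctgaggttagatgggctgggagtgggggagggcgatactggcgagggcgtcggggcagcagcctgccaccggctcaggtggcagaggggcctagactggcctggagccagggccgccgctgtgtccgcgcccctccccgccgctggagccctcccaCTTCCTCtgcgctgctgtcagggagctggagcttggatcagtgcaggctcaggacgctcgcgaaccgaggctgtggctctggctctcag
Lama2, chr10:27616893-27617192, minus strand: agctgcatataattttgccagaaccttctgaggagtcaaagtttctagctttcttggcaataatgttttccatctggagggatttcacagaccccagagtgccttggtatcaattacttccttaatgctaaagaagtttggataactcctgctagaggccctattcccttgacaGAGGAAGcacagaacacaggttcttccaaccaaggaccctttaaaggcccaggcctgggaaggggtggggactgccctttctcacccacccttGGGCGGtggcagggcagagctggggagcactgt
The Itgax window held an AP-1 motif 56 bases before the start and a RUNX motif at base 14 after it. The Itga4 window held a GC box 114 bases and a RUNX motif, on the other strand, 60 bases before the start. The Itga11 window held a PU.1 motif, on the other strand, 39 bases before the start, and the Lama2 window held a PU.1 motif 76 bases before the start and a GC box at base 18 after it. Over all 32851 windows, 35.7% held the GC box, 13.6% the PU.1 motif, 16.8% the RUNX motif, 13.6% the TATA box and 7.81% the AP-1 motif. Among the 21 members with a window, 10 held the GC box, 7 the PU.1 motif, 3 the RUNX motif, 3 the AP-1 motif and 0 the TATA box. A match is a run of letters and was not tested as a binding site.

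Differences between groups were tested with limma over every probe whose Cy5 signal exceeded background on 3 or more arrays of the fit. A probe was past the cut-off where its fold reached 2 and its unadjusted p was 0.01 or less, and Benjamini-Hochberg adjusted values over all probes tested stand beside it. A member above background in 1 group alone could only enter through the group where it was high, as did Lama4 and Itga1 for FLT-Sham against G-Sham, Itgax and Lama2 for G-Surgery against G-Sham, and Itga3, Itga4, Lama2 and Lama4 for FLT-Surgery against FLT-Sham. Lama4 also entered the interaction through FLT-Sham alone, and the same limit holds for genes of the lists described below. Comparisons that have a group in common share its arrays and are not independent. The files already hold a dye correction that varies with intensity. Repeating it as a second loess, a smooth correction of the ratio against intensity, moved the median difference of all probes tested from 0.24 to -0.13 for FLT-Sham against G-Sham and from -0.20 to 0.30 for FLT-Surgery against G-Surgery. The shift was from 0.14 to -0.09 for G-Surgery against G-Sham, from -0.28 to 0.36 for FLT-Surgery against FLT-Sham and from -0.37 to 0.50 for the interaction. Member differences are therefore also given relative to the median of all probes, and values after the second loess are given where they matter.

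Spaceflight without surgery was addressed by FLT-Sham against G-Sham. Lama4, a laminin alpha chain of blood vessel and fat basement membranes, was the only member past the cut-off, and it was higher in FLT-Sham. It was 1 of 20 members tested, beside 2% of all 19739 probes tested (1.79% higher and 0.208% lower, or 0.806% and 0.436% after a second loess). The Lama4 gene lies on chromosome 10 at 38965515 to 39110188 (GRCm38.p6). Its log2 ratio was -1.97, -0.63, -1.66 and 0.77 on the 4 G-Sham arrays. On the FLT-Sham arrays it was 3.59, 3.2, 0.66 and 2.02. All but replicate 8, the lowest, were above background in FLT-Sham, the lowest FLT-Sham value lay just below the highest G-Sham value, and no G-Sham array was above background. The log2 difference was 3.24 (SE 0.79, limma adjusted p = 0.41), or 2.99 relative to the median of all probes. Because G-Sham was below background, the Cy5 channel gives an approximate bound, 3.85-fold higher in FLT-Sham, which is open to dye bias. It is not a strict minimum, since replicate 8, not above background, is part of the FLT-Sham mean. Within slides the difference was 4.22 on slide 1 and 2.56 on slide 2. With slide as a block it was 3.05 (limma adjusted p = 0.637), which is not past the cut-off, and without G-Sham replicate 4 it was 2.97, with an unadjusted p just above the 0.01 of the cut-off. Without FLT-Sham replicate 4, 6 or 9 Lama4 was not tested. With another background correction (normexp and loess) its difference was 0.715 (limma adjusted p = 0.435), which misses the cut-off.

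The other 19 members tested in the Sham comparison did not pass the cut-off. The 13 integrin genes tested had a median difference of 0.50, with 11 above and 2 below 0, and the 7 laminin genes had a median of 0.02, beside 0.24 for all probes, of which 38.9% were below 0. The second loess gave the 20 members a median of 0.09, with 11 above and 9 below 0, and 4 members turned sign. The largest difference among them was that of Itga11, the alpha chain of a collagen receptor of fibroblasts and osteoblasts, at 2.04 (SE 0.99, limma adjusted p = 0.522). Itgb2 had a difference of -0.86 (SE 0.37, limma adjusted p = 0.514). At an unadjusted p of at most 0.05, 1 member was higher and 1 lower, beside 8.02% higher and 1.56% lower of all probes (9.57% in all), and 0 members and 0 probes reached an adjusted p of at most 0.05 with limma. The groups of arrays overlapped for all 20 members, beside 4.6% of probes for which they did not.

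**Figure D2:**
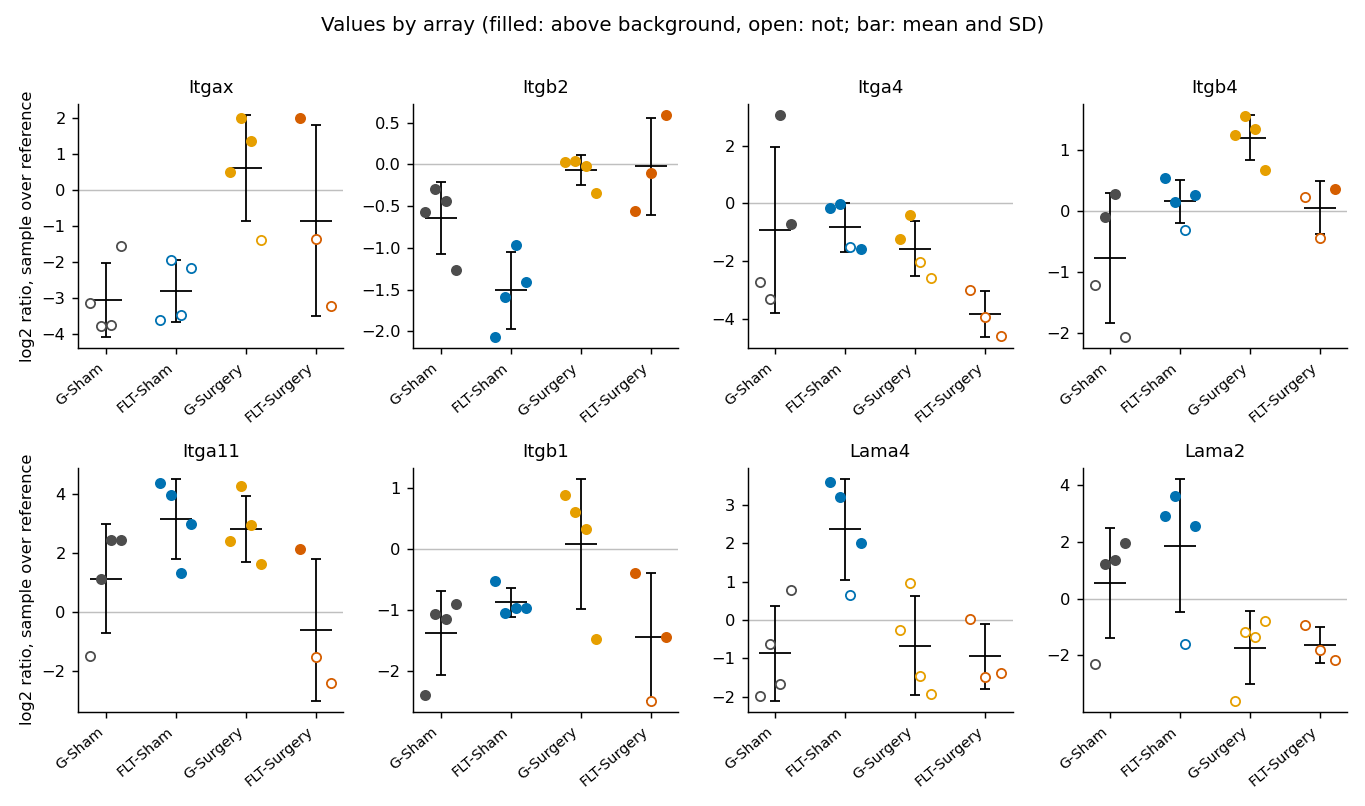
log2 ratio of sample to reference (vertical axes, scales differ between panels) of 8 genes on each array of the 4 groups. Filled points were above background and open points were not, and bars give the mean with the SD. Lama4 is high in FLT-Sham, Itgax has 3 high G-Surgery arrays, and Itgb4 is above all sham values on every G-Surgery array.

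Spaceflight after surgery was addressed by FLT-Surgery against G-Surgery. Itgb4, the beta chain that pairs with Itga6 to bind laminin, was the only member past the cut-off, and it was lower in FLT-Surgery. Itgb4 was 1 of 17 members tested, beside 3.14% of all 16548 probes (1.05% higher and 2.09% lower, or 7.03% and 0.363% after a second loess). The Itgb4 gene lies on chromosome 11 at 115974725 to 116008412. Its log2 ratio was 1.23, 1.54, 1.33 and 0.67 on the G-Surgery arrays, all above background. On the FLT-Surgery arrays it was 0.23, -0.45 and 0.36, with only the last above background. The groups did not overlap. The difference was -1.15 (SE 0.33, limma adjusted p = 0.28), or -0.94 relative to the median of all probes, and it was -1.13 within slide 1 and -1.30 within slide 2. This call depended on the processing: after a second loess the difference was -0.10 (limma adjusted p = 0.859), with median centring it was -0.82 (limma adjusted p = 0.262), and it passed in 1 of the 7 fits with an array left out (without G-Surgery replicate 5).

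Itgb1, the beta chain of most matrix-binding integrins and a gene of the study's networks, had 2 probes that did not give the same call. The gene lies on chromosome 8 at 128685654 to 128733579. Its brightest probe read 0.88, 0.60, 0.33 and -1.48 in G-Surgery and -0.39, -2.49 and -1.44 in FLT-Surgery, a difference of -1.52 (SE 0.69, limma adjusted p = 0.316). The second probe read 0.22, 0.64, 0.21 and -1.89 in G-Surgery and -2.0, -3.52 and -3.79 in FLT-Surgery. It was not above background on any FLT-Surgery array, and it passed the cut-off with a difference of -2.90 (SE 0.70, limma adjusted p = 0.26) and an approximate bound of 2.91-fold lower in FLT-Surgery. On both probes G-Surgery replicate 5 stood below the other 3 arrays of its group, at -1.48 and -1.89. In the sham groups the brightest probe ranged from -2.40 to -0.90 on the ground and from -1.05 to -0.52 in flight, above background on all 8 arrays.

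**Figure D3:**
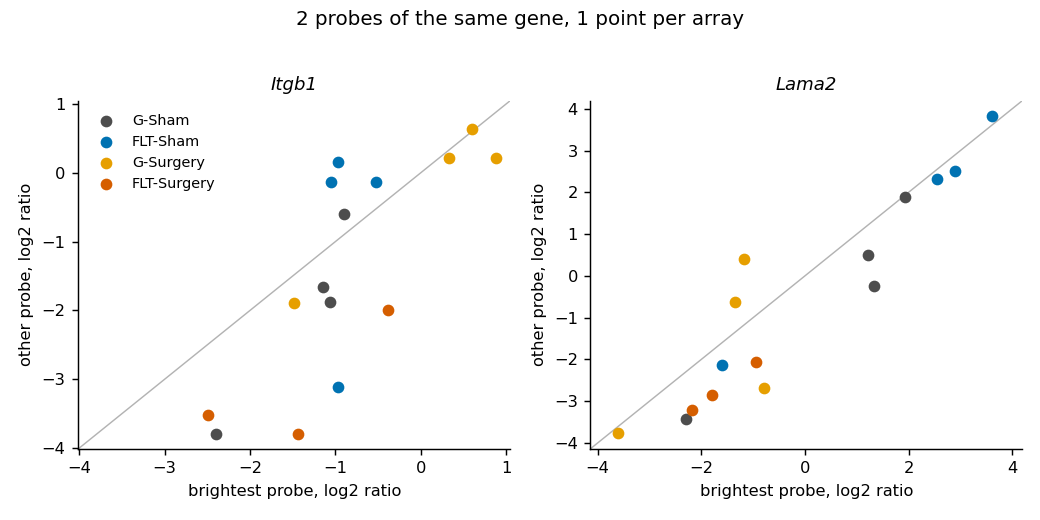
log2 ratio of the second probe (vertical axis) against that of the brightest probe (horizontal axis) for Itgb1 and Lama2, 1 point per array, with a line at equal values. For Itgb1 arrays of all 4 groups lie below the line, and the lowest values on the second probe are -3.79 on G-Sham replicate 1 and FLT-Surgery replicate 5, -3.52 on FLT-Surgery replicate 3 and -3.11 on FLT-Sham replicate 8. For Lama2 the 3 highest arrays on both probes are the FLT-Sham arrays other than replicate 8, and G-Surgery replicate 3 reads -1.18 on the brightest probe and 0.41 on the second.

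Of the 17 members tested in the Surgery comparison, 13 differences were below 0 and 4 above, with a median of -0.66 beside -0.20 for all probes, of which 62.2% were below 0. After a second loess the median was -0.10, with 11 below and 6 above 0. At an unadjusted p of at most 0.05, 3 members were lower and 0 higher, beside 5.32% higher and 11% lower of all probes (16.4% in all), and with limma 0 members and 0 probes had an adjusted p of at most 0.05. The groups did not overlap for 3 members, beside 13.5% of probes. These were Itgb4, Itgb7 and Lamc1. Itgb7, the beta chain of lymphocyte homing integrins, differed by -0.66 (SE 0.31, limma adjusted p = 0.329). Lamc1, the gamma chain of most laminins, read 0.52, 0.50, 0.81 and 0.72 in G-Surgery and 1.01, 1.08 and 1.03 in FLT-Surgery, a difference of 0.40 (SE 0.23, limma adjusted p = 0.399). Itgb5, an alpha v partner, differed by -0.95 (SE 0.37, limma adjusted p = 0.288), and Itga11 by -3.43 (SE 1.11, limma adjusted p = 0.28). Itgb7, Lamc1 and Itgb5 were singled out after their values were seen.

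The effect of the bone defect on the ground was addressed by G-Surgery against G-Sham. Itgax, the alpha chain of an integrin of dendritic cells and macrophages, and Itgb4 were higher in G-Surgery, 2 of 18 members tested, beside 2.59% of all 17675 probes (2.08% higher and 0.509% lower, or 1.31% and 1.01% after a second loess). The Itgax gene lies on chromosome 7 at 128129526 to 128150657, and its promoter window with the AP-1 and RUNX letters is printed above. Its log2 ratio was -3.13, -3.78, -3.74 and -1.56 in G-Sham, all below background. In G-Surgery it was 0.51, 2.0, 1.36 and -1.39, and the last array, replicate 5, was the only one not above background. The groups did not overlap. The difference was 3.68 (SE 0.78, limma adjusted p = 0.221), or 3.54 relative to the median of all probes, with an approximate bound of 5.94-fold higher in G-Surgery. It was 3.94 within slide 1 and 4.35 within slide 2, and 3.09 (limma adjusted p = 0.366) after a second loess. It passed the cut-off in all 5 fits with an array left out in which it was tested, and without G-Surgery replicate 1, 3 or 4 it was not tested, since too few arrays were then above background. With normexp and loess the Itgax difference was 0.70 (limma adjusted p = 0.289), which misses the cut-off.

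On the ground Itgb4 read -1.21, -0.10, 0.27 and -2.07 in G-Sham, below the G-Surgery values given above, and 2 of the 4 G-Sham arrays were above background. The difference was 1.97 (SE 0.51, limma adjusted p = 0.304), or 1.84 relative to the median of all probes. It was 1.18 within slide 1 and 3.18 within slide 2. The second loess made it 1.38 (limma adjusted p = 0.445), which misses the cut-off, and it passed in 4 of 8 fits with an array left out, the exceptions being those without G-Sham replicate 1 and without G-Surgery replicate 1, 3 or 4. Of the 18 members tested, 12 differences were above 0 and 6 below, with a median of 0.59 beside 0.14 for all probes, of which 40.1% were below 0. After a second loess the median was 0.30, with 11 above and 7 below 0. At an unadjusted p of at most 0.05, 6 members were higher and 1 was lower, beside 8.15% higher and 2.73% lower of all probes (10.9% in all), and 0 members had an adjusted p of at most 0.05 with limma, beside 0.0113% of all probes.

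The groups of arrays did not overlap for 5 of the 18 members, beside 6.86% of all probes. Besides Itgax and Itgb4 these were Itga6, Lama5 and Lamb1, singled out after their values were seen. Itga6, the alpha chain that pairs with Itgb4 or Itgb1 to bind laminin, read -0.72, -0.42, -1.01 and -0.43 in G-Sham and 0.46, 0.51, 0.44 and -0.20 in G-Surgery. Its difference of 0.95 (SE 0.27, limma adjusted p = 0.331) passed on p but fell short of a fold of 2. Lama5, a laminin chain of vessels and epithelia, read -0.88, -0.45, -0.70 and -0.50 in G-Sham and 0.35, 0.32, 0.09 and -0.18 in G-Surgery, a difference of 0.78 (SE 0.24, limma adjusted p = 0.353). Lamb1, the common laminin beta chain, differed by 0.66 (SE 0.27, limma adjusted p = 0.437), and its lowest G-Surgery value of -0.39 lay just above its highest G-Sham value of -0.41.

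Lama2, the alpha chain of the muscle laminin, had lower means in both Surgery groups than in the sham groups but did not pass the cut-off, and it was also singled out after its values were seen. The gene lies on chromosome 10 at 26981285 to 27617191. Its brightest probe read -2.30, 1.21, 1.34 and 1.94 in G-Sham and 2.89, 3.62, -1.60 and 2.55 in FLT-Sham. It read -3.60, -1.18, -1.35 and -0.78 in G-Surgery and -0.94, -1.80 and -2.17 in FLT-Surgery. In each sham group 1 array, G-Sham replicate 1 and FLT-Sham replicate 8, lay among the Surgery arrays, so the groups overlapped. The difference was -2.28 (SE 0.99, limma adjusted p = 0.455) for G-Surgery against G-Sham and -3.50 (SE 1.19, limma adjusted p = 0.159) for FLT-Surgery against FLT-Sham, neither past the cut-off. The approximate bounds were 3.42-fold higher in G-Sham and 7.4-fold higher in FLT-Sham than in the Surgery group compared. The second Lama2 probe, above background on 6 arrays, differed by -1.34 (SE 1.25, limma adjusted p = 0.695) on the ground and by -4.35 (SE 1.29, limma adjusted p = 0.15) in flight. The brightest Lama2 probe entered both tests through sham arrays alone.

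**Figure D4:**
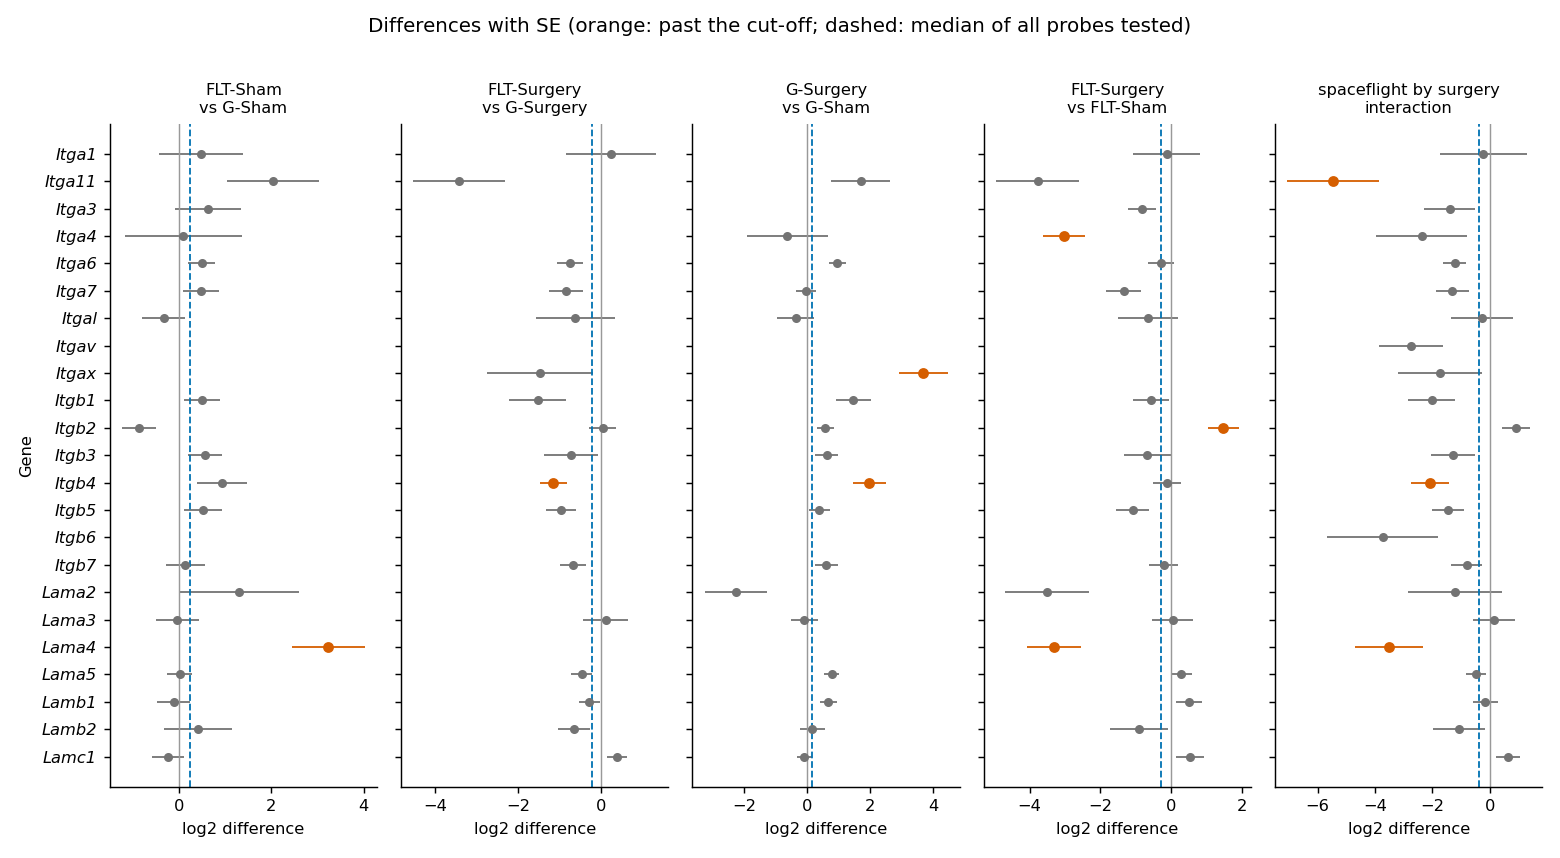
log2 difference with its SE (horizontal axes) of every member tested in each of the 5 comparisons, with members past the cut-off in orange and the median of all probes tested as a dashed line. Most points lie right of 0 for G-Surgery against G-Sham and left of 0 for the interaction, where Itga11 is farthest out at -5.46.

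The effect of the bone defect in flight was addressed by FLT-Surgery against FLT-Sham. Itgb2, the beta chain shared by the leukocyte integrins, was higher in FLT-Surgery, and Itga4, a leukocyte receptor chain for vascular adhesion molecules, and Lama4 were lower. These are 3 of 20 members tested, beside 6.65% of all 19136 probes (0.423% higher and 6.22% lower, or 3.26% and 2.98% after a second loess). Itgb2 lies on chromosome 10 at 77530329 to 77565708 and was above background on all arrays. It read -2.07, -1.59, -0.96 and -1.41 in FLT-Sham and -0.56, -0.10 and 0.59 in FLT-Surgery, without overlap. The difference was 1.49 (SE 0.44, limma adjusted p = 0.15), or 1.77 relative to the median of all probes. It was 2.32 within slide 1, 0.76 within slide 2 and 2.11 (limma adjusted p = 0.16) after a second loess. With slide as a block it was 1.49 (limma adjusted p = 0.335), which misses the cut-off, and it passed in 2 of 7 fits with an array left out. On the ground Itgb2 read -0.57, -0.30, -0.44 and -1.27 in G-Sham and 0.03, 0.04, -0.02 and -0.34 in G-Surgery, a difference of 0.57 (SE 0.28, limma adjusted p = 0.492).

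Itga4 lies on chromosome 2 at 79255426 to 79333114, and its promoter window is printed above. It read -0.17, -0.01, -1.52 and -1.59 in FLT-Sham, above background on all but replicate 8. In FLT-Surgery it read -3.0, -3.94 and -4.58, below background on all 3. The groups did not overlap, and the difference was -3.02 (SE 0.59, limma adjusted p = 0.121), or -2.73 relative to the median of all probes, with an approximate bound of 3.32-fold lower in FLT-Surgery. It was -4.09 within slide 1, -1.96 within slide 2 and -1.76 (limma adjusted p = 0.16) after a second loess, and it passed in all 4 left-out fits in which it was tested. In 1 fit over all 15 arrays the difference was -3.02 (SE 1.17, limma adjusted p = 0.0989) and missed the cut-off, as it did with normexp and loess, at -0.14 (limma adjusted p = 0.465). G-Sham arrays were spread from -3.32 to 3.06, and G-Surgery arrays from -2.57 to -0.41, and a difference on the ground was not detectable at this spread (difference -0.64, SE 1.28, limma adjusted p = 0.861). The second Itga4 probe was above background on 0 arrays.

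Lama4 read 0.03, -1.49 and -1.37 in FLT-Surgery and -0.26, 0.97, -1.46 and -1.92 in G-Surgery, below background on all 7 Surgery arrays. Against the FLT-Sham values given above, the FLT-Surgery difference was -3.31 (SE 0.77, limma adjusted p = 0.136), or -3.02 relative to the median of all probes, with an approximate bound of 3.09-fold lower and no overlap. The difference was -5.02 within slide 1, -1.93 within slide 2 and -2.97 (limma adjusted p = 0.152) after a second loess. It missed the cut-off with normexp and loess, at -0.66 (limma adjusted p = 0.245). Of the 4 fits with an array left out in which Lama4 was tested it passed in 2, and it missed without FLT-Surgery replicate 3 (-3.03) and without FLT-Surgery replicate 5 (-3.09).

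Across the 20 members tested in flight, 15 differences were below 0 and 5 above, with a median of -0.61 beside -0.28 for all probes, of which 58.6% were below 0. After a second loess the median was 0.18, with 7 below and 13 above 0, and 8 members turned sign. The groups did not overlap for 5 members, beside 14.7% of all probes. Besides the 3 past the cut-off these were Itga3, a laminin receptor chain, with a difference of -0.82 (SE 0.39, limma adjusted p = 0.236), and Lama5, with a difference of 0.30 (SE 0.31, limma adjusted p = 0.525), both singled out after their values were seen. At an unadjusted p of at most 0.05, 1 member was higher and 6 lower, beside 3.82% higher and 20.5% lower of all probes (24.3% in all). With limma 0 members had an adjusted p of at most 0.05, beside 0.0836% of all probes. Of the 3 members past the cut-off, Itgb2 (limma adjusted p = 0.046) and Lama4 (limma adjusted p = 0.0481) reached 0.05 in 1 fit over all 15 arrays. In that fit 4 of 20 members were past the cut-off, beside 13.6% of all probes. FLT-Sham replicate 8 decided several of these values: without it 7 members passed the cut-off in place of 3, adding Itga11, Itga7, Lama2 and Lamb2, and 26.2% of all probes passed in place of 6.65%.

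Whether spaceflight acted differently with and without surgery was asked with the interaction over all 15 arrays, the FLT-minus-ground difference in Surgery less that in Sham. Itga11, Itgb4 and Lama4 were past the cut-off, all with a negative value, 3 of 23 members tested beside 5.33% of all 21777 probes (0.358% higher and 4.97% lower, or 3.12% and 1.05% after a second loess). Itga11 lies on chromosome 9 at 62677855 to 62783979, and its promoter window with the PU.1 letters is printed above. It read -1.50, 1.12, 2.44 and 2.44 in G-Sham and 4.39, 3.98, 1.31 and 2.98 in FLT-Sham. It read 2.41, 4.29, 2.95 and 1.63 in G-Surgery and 2.14, -1.54 and -2.42 in FLT-Surgery. All FLT-Sham and G-Surgery arrays were above background, and only 1 FLT-Surgery array, replicate 1, was. The FLT-minus-ground difference was 2.04 in Sham and -3.43 in Surgery, and the interaction was -5.46 (SE 1.60, limma adjusted p = 0.172), or -5.10 relative to the median of all probes. It was -3.71 (limma adjusted p = 0.229) after a second loess, and it passed in 13 of 15 fits with an array left out, the exceptions being those without FLT-Surgery replicate 3 and without FLT-Surgery replicate 5.

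For Itgb4 the interaction was -2.08 (SE 0.67, limma adjusted p = 0.179), from 0.93 in Sham and -1.15 in Surgery, and after a second loess it was -0.28 (limma adjusted p = 0.801), which misses the cut-off. It passed in 5 of 9 alternative settings and in 5 of 15 fits with an array left out. It also missed with median centring (-1.55, limma adjusted p = 0.247) and with normexp and loess (-0.46, limma adjusted p = 0.278). Itgb4 was 0.54, 0.14, -0.31 and 0.25 in FLT-Sham, so the FLT-Surgery and FLT-Sham arrays overlapped (difference -0.11, SE 0.39). Lama4, not above background on any array outside FLT-Sham, entered the interaction through that group alone. Its FLT-Surgery against G-Surgery difference was not tested. Lama4 had an interaction of -3.52 (SE 1.17, limma adjusted p = 0.186), and passed in 5 of the 12 fits with an array left out in which it was tested. This call was lost after a second loess (-3.09, limma adjusted p = 0.229), with median centring (-2.98, limma adjusted p = 0.239), with slide as a block (-3.25, limma adjusted p = 0.284) and with normexp and loess (-0.69, limma adjusted p = 0.294). The second Itgb1 probe also passed, at -4.08 (SE 1.23, limma adjusted p = 0.172), while the brightest gave -2.03 (SE 0.81, limma adjusted p = 0.214).

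Of the 23 members tested for the interaction, 20 values were below 0 and 3 above, with a median of -1.28 beside -0.37 for all probes, of which 60.8% were below 0. After a second loess the median was -0.09, with 14 below and 9 above 0. Of the members, 6 turned sign. At an unadjusted p of at most 0.05, 0 members were above 0 and 8 below, beside 2.81% above and 16.7% below of all probes (19.5% in all), and 0 members and 0 probes had an adjusted p of at most 0.05 with limma.

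**Figure D5:**
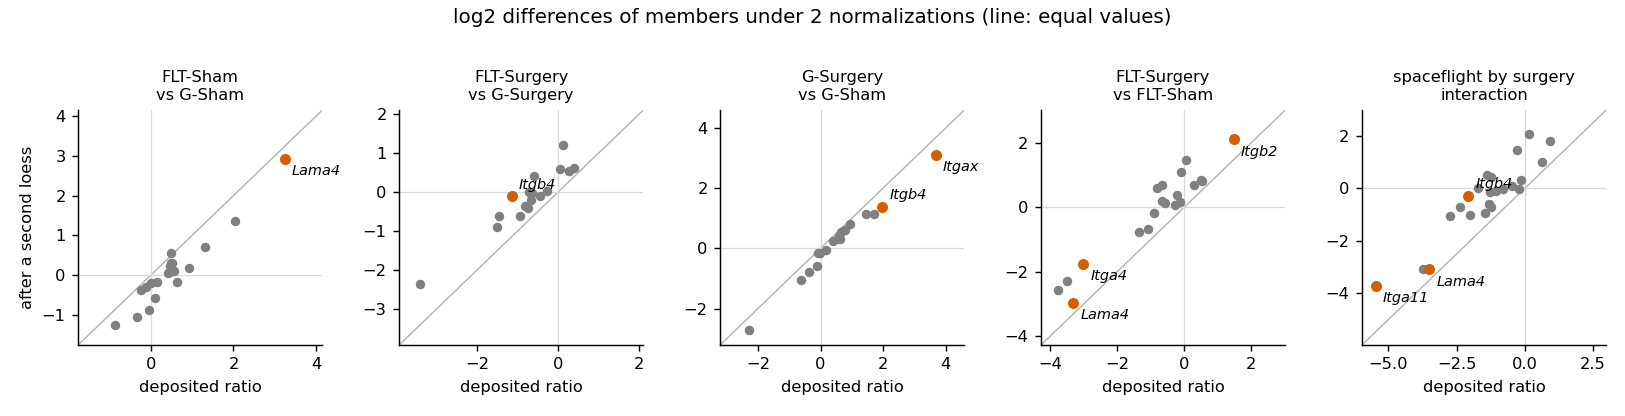
log2 difference after a second loess (vertical axes) against that from the deposited ratio (horizontal axes) for the members tested, 1 panel per comparison, with members past the cut-off named in orange. Itgax is at 3.68 and 3.09 for G-Surgery against G-Sham, whereas Itgb4 moves from -1.15 to -0.10 for FLT-Surgery against G-Surgery.

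The members that passed in no comparison can be grouped by role. Among laminin chains, Lama3, Lama5, Lamb1, Lamb2 and Lamc1 were tested in all 5 comparisons, and their values spanned differences from -1.07 (Lamb2, interaction) to 0.78 (Lama5, surgery on the ground). Lamb2, a beta chain of muscle and nerve basement membranes, read 0.71, 0.77, -2.42 and 0.44 in FLT-Sham, with replicate 8 far below the others. Lama1, Lamb3 and Lamc3 were tested in none. Among laminin-binding integrin chains, Itga7, the main alpha chain of muscle fibres, read 2.0, 2.55, 2.35 and 2.86 in G-Sham, 3.29, 3.35, 2.03 and 2.99 in FLT-Sham, 1.93, 2.73, 2.84 and 2.13 in G-Surgery and 2.38, 1.12 and 1.24 in FLT-Surgery. Its difference was -1.34 (SE 0.50, limma adjusted p = 0.176) for FLT-Surgery against FLT-Sham and -0.03 (SE 0.31, limma adjusted p = 0.971) for surgery on the ground. Itgal, the alpha chain of the main lymphocyte integrin, was tested in all 5 comparisons with differences from -0.66 to -0.29, and Itga9 and Itgad were tested in none. Among collagen-binding chains, the brightest Itga1 probe differed by at most 0.49 in size, and Itga2 was not tested. With an array left out, this Itga1 difference reached 1.43 for FLT-Sham against G-Sham. The second Itga1 probe gave 0.76 there and -1.06 for the interaction, and none of these passed the cut-off. Of the chains that bind the RGD sequence of fibronectin and vitronectin, Itga5 and Itga8 were tested in none, and Itgav only in the interaction, at -2.76 (SE 1.12, limma adjusted p = 0.217). Of the beta chains, Itgb3, the osteoclast and platelet chain, differed by at most 0.72 in size between any 2 groups tested, while Itgb2l and Itgb8 were tested in none. Itgb6 read -2.94, -2.09, -1.26 and 4.92 in G-Surgery, the last on replicate 5 and the only one above background, so its interaction of -3.74 had an SE of 1.94.

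The proteins that integrins and laminins work with were taken from 5 lists. Of 20 other basement membrane components, 14 were tested for surgery on the ground, and 2 were past the cut-off, both higher, beside 2.08% higher of all probes. These were Col15a1, a collagen of muscle and vessel basement membranes, at 4.60 (SE 0.45, limma adjusted p = 0.0407), with a bound of at least 4.88-fold, and Nid1, which links laminin to type IV collagen, at 1.85 (SE 0.44, limma adjusted p = 0.271). Col15a1 was above background on 4 G-Surgery and 0 G-Sham arrays, so it entered the test only through the group where it was high. The median of the genes tested was 0.73, with 13 of 14 above 0, beside a median of 0.14 for all probes, of which 40.1% were below 0. Of 15 tested in flight, Fbln1, a fibulin of vessel walls, was past the cut-off, with a log2 difference of -2.68 (SE 0.63, limma adjusted p = 0.136), beside 6.22% lower of all probes. Nid1 had an interaction of -2.64 (SE 0.65, limma adjusted p = 0.168), 1 of 15 tested, beside 4.97% below 0 and past the cut-off of all probes. The list had 0 of 14 past the cut-off in each spaceflight comparison.

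Of 30 integrin ligands, 17 were tested for surgery on the ground, and 4 were past the cut-off, all higher, again beside 2.08% of all probes. Col2a1, the collagen of cartilage, differed by 6.03 (SE 1.18, limma adjusted p = 0.201), with a bound of at least 31.2-fold, and it too was above background on 4 G-Surgery and 0 G-Sham arrays. Ibsp, bone sialoprotein, differed by 3.1 (SE 0.75), Col3a1 by 2.22 (SE 0.56) and Fn1, fibronectin, by 1.44 (SE 0.30). For FLT-Surgery against G-Surgery, Col2a1 at -5.92 (SE 1.53, limma adjusted p = 0.28) and Icam2 at -1.86 (SE 0.52, limma adjusted p = 0.28), a leukocyte integrin ligand of endothelium, were lower, 2 of 16, beside 2.09% of all probes. For FLT-Sham against G-Sham, Ibsp was higher by 2.35 (SE 0.47, limma adjusted p = 0.346), 1 of 19, beside 1.79% of all probes. For FLT-Surgery against FLT-Sham, Tnn, a tenascin of the periosteum, was lower at -4.15 (SE 0.96, limma adjusted p = 0.136), 1 of 19, beside 6.22% of all probes, and it entered through FLT-Sham alone. For the interaction 4 of 21 ligands were past the cut-off, all below 0, beside 4.97% of all probes. These were Col2a1 at -7.27, Vcam1, the main ligand of the Itga4 chain, at -3.54, Icam2 at -3.07 and Ibsp at -3.06.

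Of 45 adhesion and signalling proteins, Apbb1ip, which brings talin to integrins in blood cells, was higher for surgery on the ground (2.26, SE 0.59, limma adjusted p = 0.304), 1 of 37 tested, beside 2.08% of all probes. For FLT-Surgery against FLT-Sham, Crk, Parvb and Cd151, an adaptor, a parvin and a tetraspanin partner of laminin-binding integrins, were lower by differences of -2.72 (SE 0.74), -1.89 (SE 0.42) and -1.39 (SE 0.37), 3 of 38, beside 6.22% of all probes. Crk and Parvb entered through FLT-Sham alone. Rhoa was past the cut-off for the interaction at -1.38 (SE 0.43), 1 of 41, beside 4.97% of all probes, and 0 of 39 and 0 of 36 passed in the FLT-Sham against G-Sham and FLT-Surgery against G-Surgery comparisons. In the dystrophin complex, the other laminin receptor of muscle, Sgcb was lower for FLT-Surgery against FLT-Sham at -2.86 (SE 0.70, limma adjusted p = 0.137), 1 of 11 tested, beside 6.22% of all probes, and it entered through FLT-Sham alone, while 0 of 9 to 12 passed in the other comparisons. Of the 8 other laminin receptors, 4 or 5 were tested and 0 passed in any comparison.

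Marker levels of cell types that express members differed between arrays and groups, and their part in the member values was not tested. All 14 skeletal muscle markers were above background on at least 1 array, and their mean log2 ratio per array ranged from 6.69 to 9.42 in G-Sham, 7.44 to 9.32 in FLT-Sham, 6.33 to 8.64 in G-Surgery and 4.51 to 7.76 in FLT-Surgery, beside the Itga7 and Lama2 values. For FLT-Surgery against FLT-Sham, 5 of 14 muscle markers were past the cut-off, all lower, beside 6.22% lower of all probes. The mean of 10 endothelial markers, with Tek above background on 0 arrays, ranged from 0.89 to 2.21, 1.14 to 4.56, 1.65 to 3.0 and 0.86 to 2.15 in the same order of groups, and that of 8 adipocyte markers, with Lep on 0 arrays, from -0.16 to 3.39, 3.26 to 4.76, 0.19 to 0.94 and -0.78 to 1.61, beside Lama4. For FLT-Sham against G-Sham 2 of 6 adipocyte markers tested were past the cut-off, both higher, beside 1.79% higher of all probes, and for FLT-Surgery against FLT-Sham 5 of 6, all lower, beside 6.22%. A marker above background in 1 group alone could only enter through that group. Adipoq did so in flight, above background on 3 FLT-Sham and 0 FLT-Surgery arrays. The mean of 9 macrophage markers, with Cd163 on 0 arrays, ranged from -0.23 to 0.63, 0.10 to 0.79, 1.09 to 1.69 and -0.08 to 1.03, so that G-Surgery lay above all others, beside Itgax and Itgb4, while FLT-Surgery and FLT-Sham overlapped. Beside Itgb2 and Itga4 in flight stand other blood cell lists. The mean of 9 neutrophil markers, each above background on at least 2 arrays, ranged from 4.83 to 6.43 in FLT-Sham and 2.71 to 4.34 in FLT-Surgery, and 3 of 8 tested were past the cut-off, all lower (smallest limma adjusted p = 0.0397). The mean of 8 erythroid markers, with Klf1 on 0 arrays, ranged from 3.01 to 4.67 and from 1.06 to 2.03, and 4 of 6 tested were past it, all lower. The mean of 10 T and NK cell markers, with Cd3g and Klrd1 on 0 arrays, ranged from -0.08 to 0.68 and from 0.53 to 0.78, and 0 of 6 tested passed, with 6 of 6 above 0 and a median difference of 0.60 beside -0.28 for all probes. Among 9 B cell markers, with Igll1 on 0 arrays, the mean ranged from -0.36 to 0.55 and from -1.39 to -1.15. Of these, 0 of 5 tested passed, all 5 below 0, with a median of -1.495. Among 9 megakaryocyte and platelet markers, with Gp1ba, Gp5 and Tubb1 on 0 arrays, it ranged from -0.09 to 1.19 and from -0.66 to -0.19. There 0 of 6 tested passed, with 5 below 0, 1 above and a median of -1.413. The mean of 9 chondrocyte markers, with Sox9, Matn3, Col10a1 and Cnmd on 0 arrays, ranged from -0.65 to 0.25 in G-Sham, -0.49 to 1.19 in FLT-Sham, 0.72 to 1.80 in G-Surgery and -0.53 to 0.36 in FLT-Surgery. Epithelial markers, among which Epcam and Cdh1 were above background on 0 arrays, had means of -2.51 to -1.19 over all arrays, beside Itgb4. Krt18 was above background on 15 arrays, Krt8 on 14, Krt14 on 10, Krt5 on 9, and Krt1 and Krt10 on 1 each. The tissue is labelled callus in all groups, and of 10 osteoblast and osteocyte markers, Sp7, Dmp1, Sost and Phex were above background on 0 arrays. Col1a1 was so on 15 arrays, Ibsp on 14, Mepe on 11, Bglap on 8, Alpl on 7 and Runx2 on 6. Their list mean ranged from -0.4 to 0.73 in G-Sham, 0.67 to 1.71 in FLT-Sham, 0.18 to 0.9 in G-Surgery and -0.12 to 0.49 in FLT-Surgery. In flight 1 of 5 tested passed, beside 6.22% lower of all probes. This was Alpl, lower (limma adjusted p = 0.0397), which entered through FLT-Sham alone.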

How the data were processed

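RNA from the femur of 15 mice was hybridised to 15 two-colour Agilent arrays of 55681 probes. The authors deposited scanner files with processed intensity values per channel and a log10 ratio of Cy5 over Cy3, made with Feature Extraction (12.0.3.1 per the file headers, 12.0 per the labels), together with a table of the same log10 ratios. These signals were background-subtracted and already hold an intensity-dependent dye normalization. Here the deposited ratio was converted to log2 with no further normalization and no pseudocount, control spots were dropped and spots of a probe were averaged. Probes were named through their accessions in a RefSeq table (28026 with a symbol). Probes whose Cy5 signal was well above background on 3 or more arrays of a fit were tested with limma 3.58.1 (R 4.3.3), by group for each pair of groups and over all 15 arrays for the interaction. Bounds came from the Cy5 channel after quantile scaling of average intensities, set against the dimmest signal that an array still called above background. Scripts were tested on simulated data.

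One gene of the family and one marker gene are not reported here. The members and gene lists were chosen with earlier results of these data known. The rule named in full members past the cut-off in any comparison, plus Itgb1, and other members given by array, such as Lama2 and Itga7, were chosen after their values were seen. Arrays lay on 3 slides, 1 holding a single array, so within-slide values come from the other two. P-values measure the spread between mice. Same-numbered mice did not deviate together (correlations from -0.36 to 0.24 for the Surgery groups and -0.16 to 0.35 on the ground), so numbers were not taken as pairs. Alternatives were a second loess, median centring, normexp (offset 50, on median signals) with loess, Cy5 alone, other filters, slide and replicate blocks, array weights, all probes of a gene averaged, the series table, 1 fit over all arrays, and each array left out.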

Additional observations from a re-analysis of the deposited data

Results flagged for a closer look

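In 10 of 72 groups of 4 arrays checked over the members' values and the number of members above background, 1 array lay apart from the other 3 by Dixon's criterion, which chance meets in about 1 of 20 groups. FLT-Sham replicate 8, the array of that group with the fewest probes above background, was such an array for Itga1 (0.0, others 3.65 to 3.82), Itga6 (-0.47, others -0.06 to -0.02) and Lamb2 (-2.42, others 0.44 to 0.77). G-Surgery replicate 5 was one for Itga6 (-0.20, others 0.44 to 0.51) and Itgb2 (-0.34, others -0.02 to 0.04). The rest were Itgav in G-Sham replicate 5 (-2.44, others -4.93 to -4.51), Itgb1 in G-Sham replicate 1 (-2.40, others -1.15 to -0.90), Itgb1 in FLT-Sham replicate 4 (-0.52, others -1.05 to -0.97) and Lama5 in FLT-Sham replicate 9 (-0.67, others -0.60 to -0.59). G-Surgery replicate 1 also stood apart by the number of members above background, 22 where the others of its group had 16 to 17. The effect of spaceflight differed between Surgery and Sham, by the cut-off of the limma interaction, for Itga11 (-5.46), Itgb4 (-2.08) and Lama4 (-3.52), none with an adjusted p at or below 0.05. Lama4 was above background in FLT-Sham alone and entered only through that group, so its spaceflight effect in Surgery was not measured.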

How the results depend on the processing

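The number of members past the cut-off was 1 for FLT-Sham against G-Sham, 1 for FLT-Surgery against G-Surgery, 2 for G-Surgery against G-Sham, 3 for FLT-Surgery against FLT-Sham and 3 for the interaction. In that order, normexp with loess gave 0, 0, 0, 0 and 1, a filter that asked for both channels above background throughout gave 0, 0, 0, 1 and 1, and array weights 3, 3, 4, 8 and 10. With array weights the shares of all probes past the cut-off also rose, to 19.5%, 10.3%, 3.62%, 44.5% and 26.2%. They were 0.167%, 1.28%, 1.01%, 1.55% and 1.48% with normexp and loess, and 0.616%, 4.36%, 2.88%, 6.36% and 7.05% with the filter on both channels. Slide as a block gave 0 for FLT-Sham against G-Sham (1.15% of all probes) and 3 for FLT-Surgery against G-Surgery (7.8%). A second loess gave 0 for FLT-Surgery against G-Surgery (7.39% of all probes), 1 for G-Surgery against G-Sham (2.33%) and 1 for the interaction (4.16%). Median centring and Cy5 alone each gave 0 for FLT-Surgery against G-Surgery (4.62% and 4.68%) and 1 for the interaction (4.2% and 5.02%). In 1 fit over all 15 arrays 0 passed for FLT-Surgery against G-Surgery (3.35%). No called difference changed sign under any of these alternatives. The cause was not tested. Dim probes and the number of arrays limit all of these values.

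With each array left out the counts ranged from 0 to 1, 0 to 3, 0 to 4, 0 to 7 and 0 to 8. FLT-Sham against G-Sham gave 0 without FLT-Sham replicate 4, 6 or 9 or G-Sham replicate 4. FLT-Surgery against G-Surgery gave 3 without FLT-Surgery replicate 1 (12.7% of all probes), 2 without G-Surgery replicate 5 (4.63%) and 0 without any other array. G-Surgery against G-Sham gave 0 without G-Surgery replicate 1, 3 or 4, and 4 without G-Surgery replicate 5 (3.92%). FLT-Surgery against FLT-Sham gave 7 when FLT-Sham replicate 8 was left out (26.2% of all probes), 0 without FLT-Sham replicate 4, 6 or 9, and 1 without FLT-Surgery replicate 3 or 5. The interaction gave 8 when FLT-Sham replicate 8 was left out (17.5% of all probes), 7 without FLT-Surgery replicate 1 (10.3%), 5 without G-Surgery replicate 5 (5.87%) and 0 without FLT-Surgery replicate 3. It gave 1 without FLT-Surgery replicate 5, FLT-Sham replicate 4, 6 or 9, G-Sham replicate 1, or G-Surgery replicate 1 or 3.

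With the replicate number as a block, 0 members passed for FLT-Surgery against G-Surgery, where Itgb4 was -1.10 (limma adjusted p = 0.547), and 3 for G-Surgery against G-Sham (Itgax, Itgb4 and Lama2), with Itgax at 3.68 (limma adjusted p = 0.44). These were out of 16 and 18 members tested, beside 1.27% and 2.2% of all probes past the cut-off. The other comparisons share too few numbers for a block.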
